A study of Mus musculus with 2 samples.

Results

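The MHC class II presentation genes described here were Cd74, H2-Aa, H2-Ab1, H2-Eb1, H2-DMa, H2-DMb1, H2-DMb2, H2-Oa, H2-Ob and Ciita. They were chosen by symbol as genes of the class II pathway, with earlier results of these data known. All 10 were present in both gene lists, which hold 27933 symbols. Single-cell RNA was measured in lymph node immune cells of mice 6 to 8 weeks old that carried a heart graft. In the allogeneic group the heart came from a C57BL/6 donor and the recipient was Balb/c. In the syngeneic group donor and recipient were both Balb/c. All recipients in both groups were therefore transplanted Balb/c mice, and no recipients without a graft were analysed here. The design therefore sets a graft from a foreign strain against a graft of the same strain, with surgery in both. Each group was 1 droplet library, and the number of mice behind it, their sex, the node sampled and the time after grafting are not given in the sources used here. With 1 library per group no difference between the groups has a replicate check, so no test was made. Every interval below is a 95% interval for counting error only, and a ratio is described, not tested.

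Class II molecules are pairs of an alpha and a beta chain that carry peptides from engulfed or membrane proteins to the cell surface, where CD4 T cells read them. H2-Aa and H2-Ab1 encode the chains of H2-A, and H2-Eb1 encodes the beta chain of H2-E. Cd74, the invariant chain, folds with new class II chains, blocks their groove and guides them to the endosome. There H2-DM, made from H2-DMa with H2-DMb1 or H2-DMb2, swaps the last invariant chain fragment for a peptide, and H2-O, made from H2-Oa and H2-Ob, restrains H2-DM. Ciita is the transactivator that switches these genes on together without binding DNA itself. In lymph nodes the pathway is known from B cells and dendritic cells, while mouse T cells make little or none of the class II chains. In transplantation, class II molecules matter both as donor antigens and as the recipient's means of showing donor peptides to CD4 T cells.

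By the GENCODE annotation of GRCm38, the build also called mm10, 8 of the 10 genes lie within the MHC on chromosome 17, between the start of H2-Oa at base 34092340 and the end of H2-Eb1 at base 34316674. Ciita lies on chromosome 16, and Cd74 outside the MHC on another chromosome. Class II promoters share an X box, bound by the RFX complex, and a Y box, bound by NF-Y, and together they form the platform that Ciita docks on. The RefSeq promoter table of GRCm38.p6 held 7 of the 10 genes. The 150 bases before the annotated start are shown, on the gene's strand, for 6 of them because a core of these boxes stood within that stretch. Capitals mark, on the strand shown, the Y box core GATTGG and, where it was found, the X1 box core. The X1 core was searched as AG, 2 bases of any kind, AC, 3 bases of any kind, and TG. H2-Eb1 also holds 1 match of the Y box core on the other strand (ccaatc), which is not marked. The windows are chr17:34287824-34287973 on the minus strand for H2-Aa, chr17:34305717-34305866 for H2-Eb1, chr17:34153041-34153190 for H2-DMb1, chr17:34145099-34145248 for H2-DMb2, chr17:34092229-34092378 for H2-Oa and chr17:34238755-34238904 for H2-Ob, the last 5 on the plus strand.
H2-Aa: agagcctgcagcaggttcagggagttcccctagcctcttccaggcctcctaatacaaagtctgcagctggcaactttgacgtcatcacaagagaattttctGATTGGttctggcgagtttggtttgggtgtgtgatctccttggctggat
H2-Eb1: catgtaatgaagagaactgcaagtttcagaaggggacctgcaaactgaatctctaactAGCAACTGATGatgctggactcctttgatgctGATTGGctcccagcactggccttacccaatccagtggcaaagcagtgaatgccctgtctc
H2-DMb1: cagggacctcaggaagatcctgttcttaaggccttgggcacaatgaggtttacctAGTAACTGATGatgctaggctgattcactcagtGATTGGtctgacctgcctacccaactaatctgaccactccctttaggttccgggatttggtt
H2-DMb2: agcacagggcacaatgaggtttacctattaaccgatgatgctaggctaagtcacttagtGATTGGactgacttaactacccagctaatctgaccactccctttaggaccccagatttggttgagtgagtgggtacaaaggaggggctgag
H2-Oa: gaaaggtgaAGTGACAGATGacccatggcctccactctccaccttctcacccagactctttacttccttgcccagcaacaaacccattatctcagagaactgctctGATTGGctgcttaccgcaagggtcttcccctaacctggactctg
H2-Ob: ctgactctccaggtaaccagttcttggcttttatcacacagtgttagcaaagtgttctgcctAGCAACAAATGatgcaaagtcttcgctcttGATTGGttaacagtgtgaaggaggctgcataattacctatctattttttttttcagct
Over the whole window of the table, 250 bases before to 50 after the start, searched on both strands, the Y box core was present in all 7 genes and in 16.1% of 32851 promoters. The X1 core was present in 4 of the 7, H2-Eb1, H2-DMb1, H2-Oa and H2-Ob, and in 14.8% of all promoters. Both cores stood together in 2.54% of all promoters. From the first base of X1 to the first base of Y the distance was 32 bases in H2-Eb1, 33 in H2-DMb1 and 30 in H2-Ob. In H2-Oa the matched letters lay farther apart, 141 and 44 bases before the start. Nearer to its Y box core stand the letters agcaacaaaccc, which the X1 search missed because they lack its final TG. Which stretch is the X box of H2-Oa was not tested. H2-DMa has 2 starts in the table, and its Y box core stood 199 bases before the second one, outside the stretch of 150 bases. The windows of H2-DMb1 and H2-DMb2 could be aligned over 121 bases and were identical at 85.1% of them, yet the X1 letters were found only in that of H2-DMb1. The 2 sets of letters never overlapped in these windows, and they were chosen after the sequences had been seen. A match describes letters in a window and does not show binding.

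The libraries differed in depth and make-up. The allogeneic library comprised 8415043 UMIs (unique molecular identifiers, 1 per captured RNA molecule) in 3500 barcodes, against 46486632 UMIs in 7967 barcodes of the syngeneic library. The barcode with fewest UMIs had 150 in the allogeneic library, against 3447 in the syngeneic library. Barcodes with under 200 detected genes or over 10% mitochondrial UMIs were left out, which kept 2106 allogeneic cells with a median of 3147 UMIs and 7957 syngeneic cells with a median of 4917 UMIs. Haemoglobin took 9.11% of the allogeneic UMIs and 0.114% of the syngeneic UMIs. There were 66 barcodes in both libraries, and 26 of them were kept in both. Cell types were gated on marker genes among which there was no class II gene. A cell needed at least 3 UMIs from at least 2 markers of its type and at least 80% of its marker UMIs in that type, and such cells are called B-like, T-like and so on. The T gate used Cd3d, Cd3e and Cd3g. Levels are a gene's UMIs summed over the gated cells, divided by all UMIs of those cells and scaled to a total of 1000000 (CPM). Reads are counted at the 3′ end of transcripts, so levels are compared for the same gene between cells and not between genes.

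The gates held 324 allogeneic and 991 syngeneic B-like cells, 7 allogeneic and 145 syngeneic germinal centre B-like cells, and 959 allogeneic and 5184 syngeneic T-like cells. Plasmacytoid dendritic-like cells were 0 of 2106 allogeneic cells, which allows a share of up to 0.142%, against 50 of 7957 syngeneic cells (0.628%). Dendritic-like cells were 10 in the allogeneic and 46 in the syngeneic library. All 10 allogeneic ones and 41 of the syngeneic ones had more UMIs of Fscn1, Ccl22, Cacnb3 and Nudt17, markers of dendritic cells that have migrated to the node, than of Xcr1, Clec9a, Naaa, Cd209a and Clec10a. The other 5 are named here other dendritic-like cells. Macrophage-like cells, led by the complement genes C1qa, C1qb and C1qc with Cd5l and Adgre1 at 0 UMIs, were 26 allogeneic cells and 0 syngeneic cells, which allows up to 0.0377% of the syngeneic library. The 10 allogeneic dendritic-like cells had a median of only 958 UMIs and the 26 macrophage-like cells one of 506 UMIs. Cells with markers of several lineages, which can be doublets, were set aside: 33 allogeneic cells (1.57%) and 822 syngeneic cells (10.3%). Another 717 allogeneic and 699 syngeneic cells met no gate. The median depth of B-like cells was 2298 UMIs in the allogeneic library, against 4200 UMIs in the syngeneic library, and that of T-like cells was 3637 UMIs, against 4844 UMIs.

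The class II genes were carried above all by B-like cells. Of all UMIs in the cells kept, the 10 genes took 0.550% in the allogeneic and 0.876% in the syngeneic library. B-like cells held 81.3% of these class II UMIs in the allogeneic library, against 52.6% in the syngeneic library. Germinal centre B-like cells held 5.04% of the allogeneic and 12.3% of the syngeneic class II UMIs. The cells of mixed lineage, which enter no comparison, held 1.71% of the allogeneic and 20.9% of the syngeneic ones. Because cells were sampled by droplet, a share of UMIs depends on how many cells of each type were loaded and kept. Scaled to CPM, the sum of the 10 genes in the syngeneic library was 67707 CPM in the 5 other dendritic-like cells, 34068 CPM in plasmacytoid dendritic-like cells, 28729 CPM in germinal centre B-like cells, 11932 CPM in migratory dendritic-like cells, 43057 CPM in B-like cells and 891 CPM in T-like cells. In the allogeneic library it was 41131 CPM in germinal centre B-like cells, 1322 CPM in migratory dendritic-like cells, 2166 CPM in macrophage-like cells, 42821 CPM in B-like cells and 431 CPM in T-like cells. Among the small gates of other lineages the sum was 346 CPM in 9 monocyte-like and 319 CPM in 18 neutrophil-like cells of the allogeneic library and 962 CPM in 18 natural killer-like cells of the syngeneic library. It was 6798 CPM in 2 plasma-like cells and 467 CPM in 1 erythroid-like cell of the allogeneic library, and 6315 CPM in 1 plasma-like and 15825 CPM in 1 neutrophil-like cell of the syngeneic library.

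**Figure D1:**
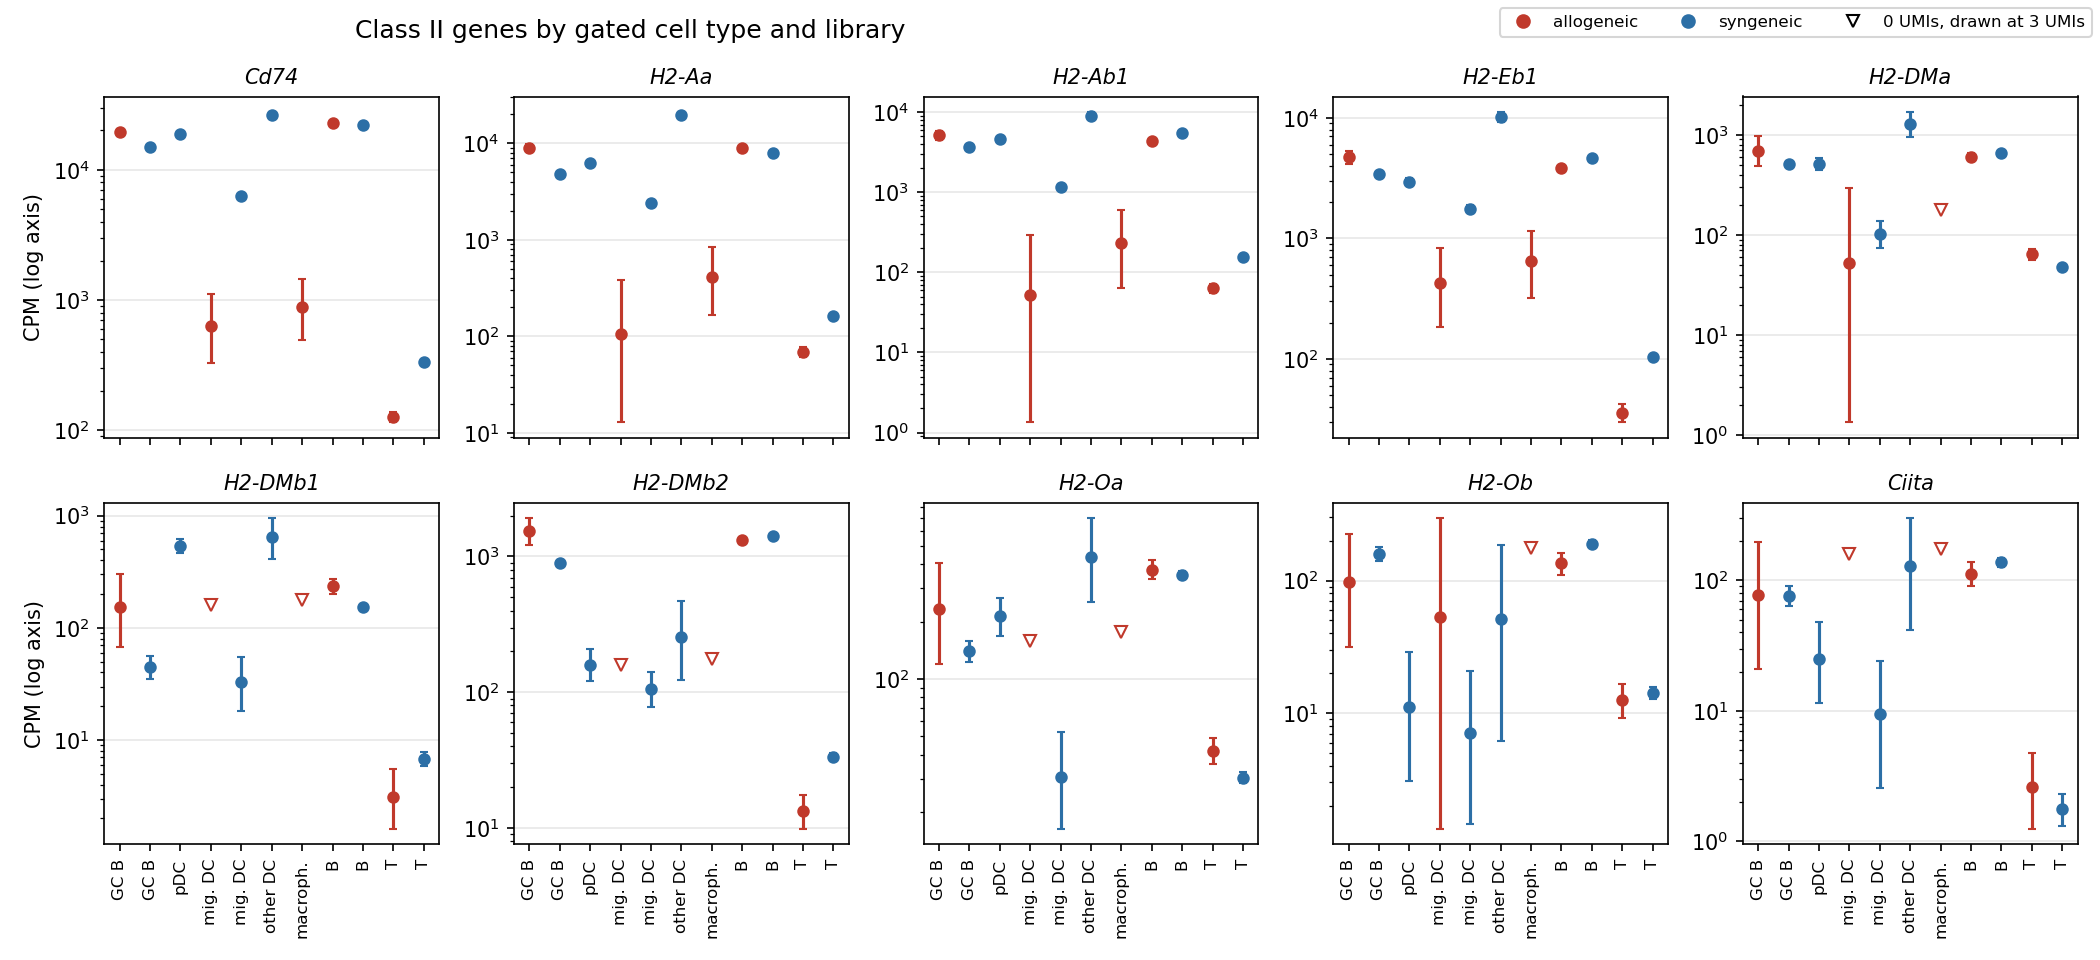
CPM (log axis) of each of the 10 genes in germinal centre B-like (GC B), plasmacytoid dendritic-like (pDC), migratory (mig. DC) and other dendritic-like, macrophage-like, B-like and T-like cells of the allogeneic (red) and syngeneic (blue) library. Points are sums over cells, bars are exact 95% Poisson intervals and open triangles stand at 3 UMIs where 0 were counted. Cd74 was 22838 and 22165 CPM in B-like cells of the allogeneic and syngeneic library, while H2-DMb2, H2-Ob and Ciita were lower in plasmacytoid dendritic-like than in B-like cells.

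Cell by cell, nearly all B-like cells were high in class II, while migratory dendritic-like cells were spread over a wide range. The lowest, median and highest B-like cell had 3582, 42996 and 180328 CPM in the allogeneic library, against 1995, 46019 and 87678 CPM in the syngeneic library. The highest allogeneic cell had only 488 UMIs of all genes, while no syngeneic barcode had fewer than 3447, so the extremes are not compared at like depth. Above 10000 CPM were 98.5% of allogeneic and 99.5% of syngeneic B-like cells. The 41 syngeneic migratory dendritic-like cells ran from 604 to 59702 CPM with a median of 5814 CPM, and 34.1% of them were above 10000 CPM. Of the 10 allogeneic ones 5 had no class II UMI, and the highest had 2225 CPM. The 50 plasmacytoid dendritic-like cells all stood above 10000 CPM. Among T-like cells 214 of 959 allogeneic cells and 65 of 5184 syngeneic cells had no class II UMI, and the median was 365 CPM in allogeneic and 853 CPM in syngeneic T-like cells. The highest T-like cell had 3295 CPM in the allogeneic library, under the lowest B-like cell, and 10280 CPM in the syngeneic library, where the ranges overlapped.

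**Figure D2:**
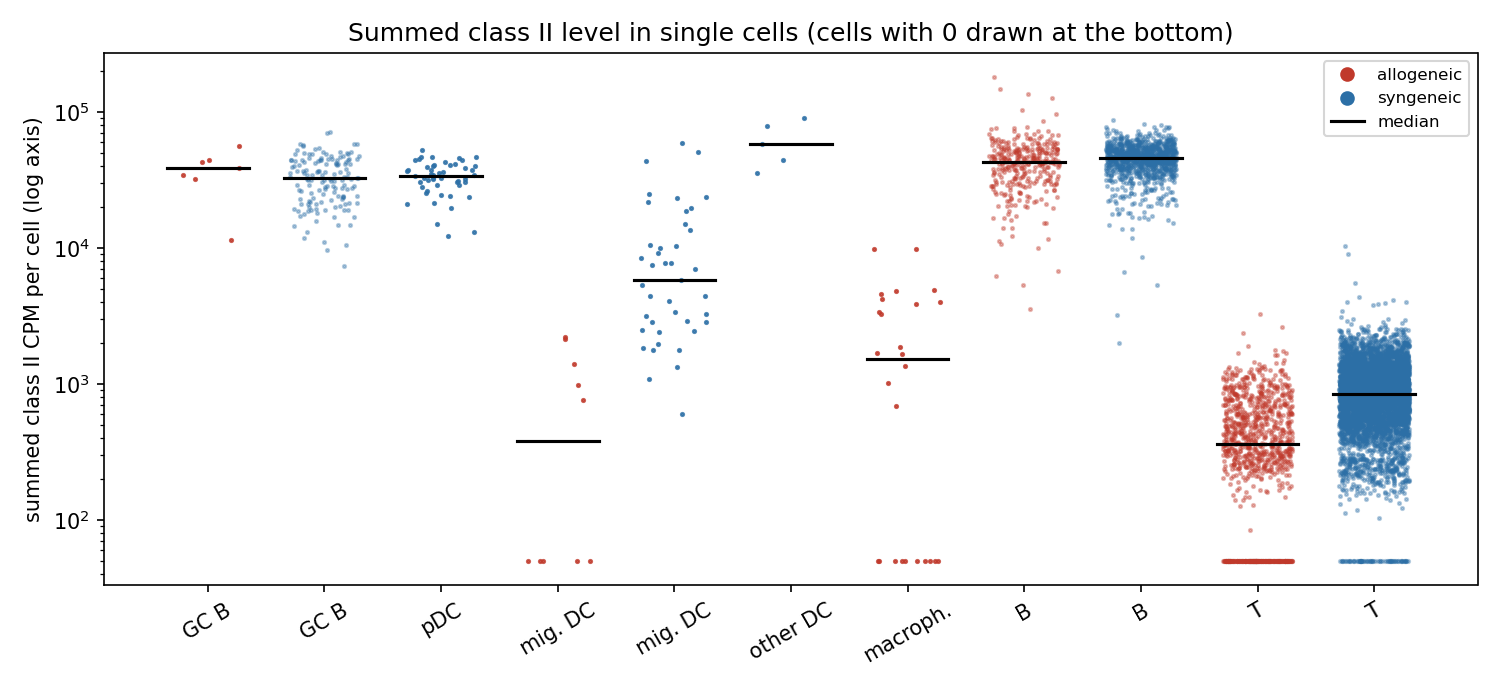
Summed CPM of the 10 genes in each cell (log axis, cells with 0 drawn at the bottom), by gated type and library (allogeneic red, syngeneic blue), with black lines at the medians. Migratory dendritic-like cells of the syngeneic library spread from 604 to 59702 CPM, and the allogeneic ones all lay under 2225 CPM or at it.

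The invariant chain and the class II chains were high in B-like, germinal centre B-like and plasmacytoid dendritic-like cells. Cd74 lies on chromosome 18, from base 60803848 to 60812652 on the plus strand of GRCm38. In the syngeneic library Cd74 reached 26063 CPM in other dendritic-like cells, 18760.1 CPM in plasmacytoid dendritic-like cells, 14908 CPM in germinal centre B-like cells, 6294 CPM in migratory dendritic-like cells, 22165 CPM in B-like cells and 334 CPM in T-like cells. The lowest, median and highest migratory dendritic-like cell had 2, 24 and 356 Cd74 UMIs, and the same values over B-like cells were 5, 104 and 343 UMIs. H2-Aa, the H2-A alpha chain, had 19682 CPM in other dendritic-like, 6221 CPM in plasmacytoid dendritic-like, 4828 CPM in germinal centre B-like, 2429 CPM in migratory dendritic-like and 7928 CPM in B-like cells. H2-Ab1, its beta chain, had 9046 CPM in other dendritic-like, 4674 CPM in plasmacytoid dendritic-like, 3709.8 CPM in germinal centre B-like, 1158 CPM in migratory dendritic-like and 5463 CPM in B-like cells. For Cd74, H2-Aa and H2-Ab1 the order was thus the same, with the 5 other dendritic-like cells first, then B-like, plasmacytoid dendritic-like, germinal centre B-like and migratory dendritic-like cells. The order of plasmacytoid and germinal centre cells did not hold under every setting. With the 5% of cells with most UMIs left out, the H2-Aa log2 ratio over B-like cells was -0.41 in plasmacytoid dendritic-like and -0.39 in germinal centre B-like cells. That of Cd74 was then -0.18 in germinal centre B-like cells, while its plasmacytoid value was -0.23 or lower under every alternative. H2-Eb1, the H2-E beta chain, stood at 10123 CPM in other dendritic-like, 2956 CPM in plasmacytoid dendritic-like, 3448 CPM in germinal centre B-like, 1764 CPM in migratory dendritic-like and 4610.3 CPM in B-like cells, so that here germinal centre B-like cells ranked above plasmacytoid ones. Of the UMIs of both beta chains, H2-Eb1 took 38.7% (36.9 to 40.6%) in plasmacytoid dendritic-like cells, 48.2% (47.3 to 49.1%) in germinal centre B-like cells, 60.4% (57.6 to 63.1%) in migratory dendritic-like cells and 45.8% (45.3 to 46.2%) in B-like cells of the syngeneic library. In allogeneic B-like cells this share was 46.6% (45.4 to 47.8%). C57BL/6 mice are known to lack H2-E at the cell surface because their alpha-chain gene is defective, and Balb/c mice have it. The alpha chain of H2-E, sought by the symbols H2-Ea and H2-Ea-ps, was not in the gene list and so could not be analysed here. The build the submitters name carries C57BL/6 class II alleles, whereas the recipients are Balb/c, and how many reads were lost to allelic mismatch was not tested.

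The H2-DM beta genes took unlike shares in different cell types. In the syngeneic library H2-DMb1 had 535 CPM in plasmacytoid dendritic-like cells (462 to 617), 641 CPM in other dendritic-like cells, 44.7 CPM in germinal centre B-like cells (35.3 to 55.8), 33 CPM in migratory dendritic-like cells, 152 CPM in B-like cells (142 to 164) and 6.81 CPM in T-like cells. H2-DMb2, by contrast, had its lowest levels outside the B lineage, with 159.7 CPM in plasmacytoid dendritic-like cells (121 to 207), 902 CPM in germinal centre B-like cells, 106 CPM in migratory dendritic-like cells and 1404 CPM in B-like cells (1371 to 1437). Of the UMIs of both beta genes, H2-DMb1 therefore took 77% (71.3 to 82.1%) in plasmacytoid dendritic-like cells, 71.4% (53.7 to 85.4%) in other dendritic-like cells, 23.7% (13.6 to 36.6%) in migratory dendritic-like cells, 4.72% (3.75 to 5.86%) in germinal centre B-like cells and 9.79% (9.14 to 10.5%) in B-like cells. The intervals of plasmacytoid dendritic-like and B-like cells were far apart, while the other dendritic-like value rests on 35 UMIs in 5 cells. H2-DMa, the shared alpha chain, had 1281 CPM in other dendritic-like, 513 CPM in plasmacytoid dendritic-like, 515 CPM in germinal centre B-like and 656 CPM in B-like cells. Migratory dendritic-like cells had 101 CPM of H2-DMa. The transcripts of H2-DMb1 and H2-DMb2 were identical at 94.7% of 1219 aligned bases, and at 89.8% of the 334 bases that could be aligned in their last 500. Reads that fit both genes could have been dropped or misplaced, so the level of either beta gene alone is uncertain.

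**Figure D3:**
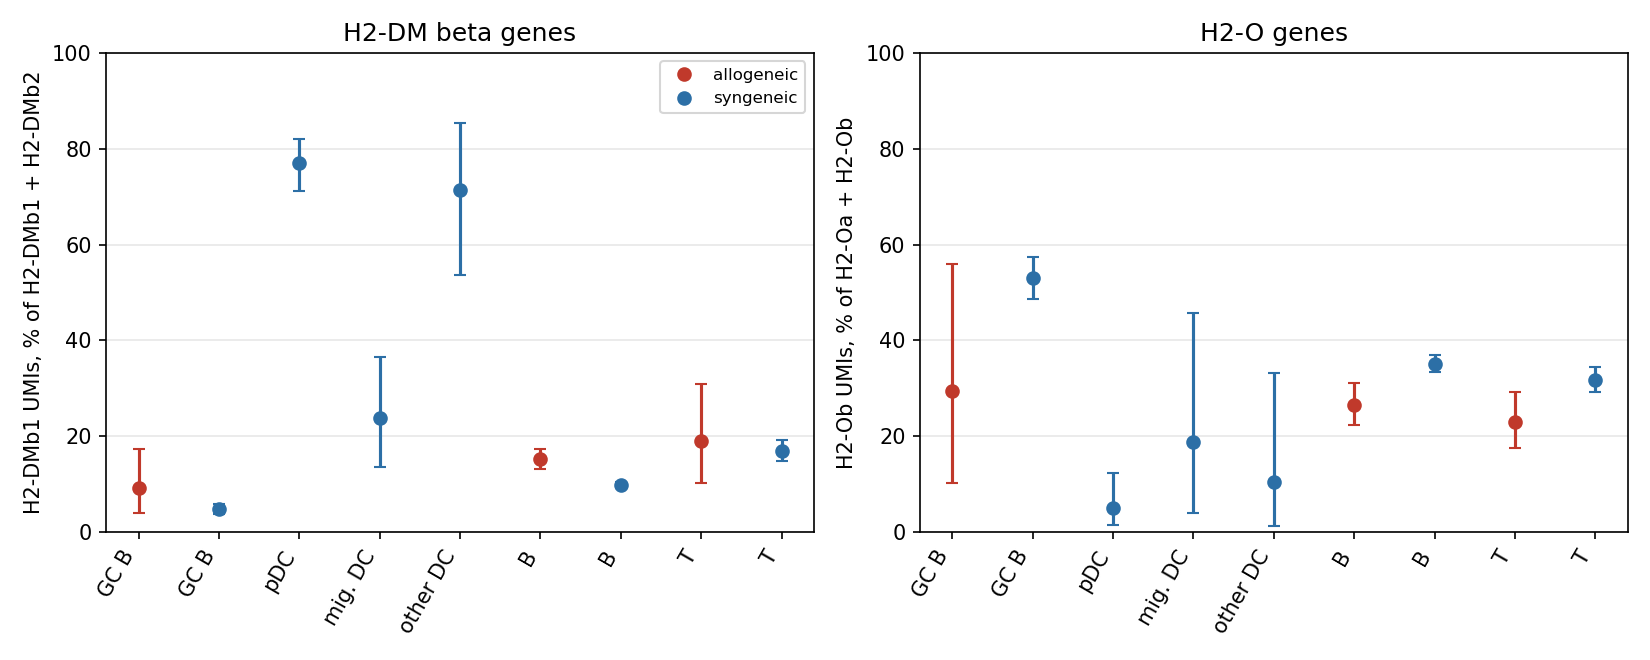
H2-DMb1 UMIs as a percentage of H2-DMb1 and H2-DMb2 UMIs (left) and H2-Ob UMIs as a percentage of H2-Oa and H2-Ob UMIs (right), by gated type, allogeneic in red and syngeneic in blue, with exact 95% binomial intervals. Plasmacytoid dendritic-like cells stood at 77% and 5%, against 9.79% and 35.2% in B-like cells of the syngeneic library.

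The H2-O genes were separated by cell type as well. H2-Oa, the H2-O alpha chain, had 213 CPM in syngeneic plasmacytoid dendritic-like cells, 139.9 CPM in germinal centre B-like cells, 30.7 CPM in migratory dendritic-like cells, 351 CPM in B-like cells and 30.4 CPM in T-like cells. H2-Ob, the beta chain, had 158 CPM in germinal centre B-like cells and 190.3 CPM in B-like cells. It had 11.2 CPM in plasmacytoid dendritic-like cells (3.05 to 28.7) and 7.07 CPM in migratory dendritic-like cells (1.46 to 20.7), and both intervals include the 14.2 CPM of T-like cells. The interval of H2-Oa in migratory dendritic-like cells (16.3 to 52.4) likewise includes its T-like level. H2-Ob took 5% (1.38 to 12.3%) of the H2-O UMIs in plasmacytoid dendritic-like cells, 53.1% (48.7 to 57.4%) in germinal centre B-like cells and 35.2% (33.3 to 37%) in B-like cells of the syngeneic library. Ciita, the transactivator, had 76.2 CPM in germinal centre B-like cells (63.8 to 90.4), 25.2 CPM in plasmacytoid dendritic-like cells (11.5 to 47.9), 9.43 CPM in migratory dendritic-like cells (2.57 to 24.2), 137 CPM in B-like cells (127 to 148) and 1.76 CPM in T-like cells. The plasmacytoid value of Ciita rests on 9 UMIs and the migratory dendritic value on 4. A Ciita UMI was present in 22.2% of allogeneic and 47.2% of syngeneic B-like cells. Thinned to 1000 UMIs each, which left 306 of 324 allogeneic and all 991 syngeneic B-like cells, the share was 13.1% of allogeneic and 14.3% of syngeneic cells.

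In B-like cells the allogeneic and syngeneic libraries differed little. Summed over the 10 genes the level was 42821 CPM in allogeneic B-like cells, against 43057 CPM in syngeneic B-like cells (log2 ratio -0.0079, allogeneic over syngeneic, -0.024 to 0.0085). Of the 10 genes 4 were higher and 6 were lower in the allogeneic library, with a median log2 ratio of -0.11, beside 0.015 over the 7470 genes that had 50 or more UMIs in both libraries together. A ratio of at least 1.5 was reached by 1 gene, H2-DMb1, beside 19.7% of all genes. A ratio of 1.5 in the other direction was reached by none of the 10 genes, beside 19.3% of all genes. The interval lay above 0 for Cd74, H2-Aa and H2-DMb1 and below 0 for H2-Ab1, H2-Eb1, H2-DMb2 and H2-Ob.

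By role, Cd74 had 22838 CPM in allogeneic B-like cells (18296 UMIs), against 22165 CPM in syngeneic B-like cells (110197 UMIs; log2 ratio 0.043, 0.021 to 0.066). Its direction turned, to -0.031, with every cell thinned to 1000 UMIs and to -0.084 among cells at least as deep as the shallowest syngeneic barcode. H2-Aa had 9013 CPM in allogeneic B-like cells, against 7928 CPM in syngeneic ones (log2 ratio 0.18, 0.15 to 0.22). The beta chains lay on the other side: H2-Ab1 had 4375 CPM in allogeneic B-like cells, against 5463 CPM in syngeneic ones (log2 ratio -0.32, -0.37 to -0.27). H2-Eb1 had 3821 CPM in the allogeneic library, against 4610.3 CPM in the syngeneic library (log2 ratio -0.27, -0.33 to -0.22). The alpha and beta chain of H2-A thus differed in direction, each by less than 1.5-fold. Among the H2-DM genes, H2-DMb1 had 235 CPM in allogeneic B-like cells (188 UMIs), against 152 CPM in syngeneic ones (758 UMIs; log2 ratio 0.62, 0.38 to 0.85). That ratio was under 1.5-fold with cells thinned to 1000 UMIs (log2 ratio 0.24) and among the 33 allogeneic B-like cells as deep as the syngeneic ones (0.14). H2-DMb2 had 1314 CPM in allogeneic B-like cells, against 1404 CPM in syngeneic ones (log2 ratio -0.10, -0.19 to -0.0015). H2-DMa had 603 CPM in allogeneic B-like cells, against 656 CPM in syngeneic ones (log2 ratio -0.12, -0.26 to 0.016), and its direction turned among deep cells (0.11). H2-DMb1 took 15.1% (13.2 to 17.3%) of the UMIs of the beta genes in allogeneic B-like cells, against 9.79% (9.14 to 10.5%) in syngeneic B-like cells. H2-Oa had 374 CPM in allogeneic B-like cells, against 351 CPM in syngeneic ones (log2 ratio 0.093, -0.088 to 0.27), and its direction turned with thinned cells (-0.19). H2-Ob had 135 CPM in allogeneic B-like cells, against 190.3 CPM in syngeneic ones (log2 ratio -0.50, -0.80 to -0.21). It passed 1.5-fold with thinned cells (-0.64) and without the 5% deepest cells (-0.59), and was -0.24 among deep cells. Ciita had 112 CPM in allogeneic B-like cells, against 137 CPM in syngeneic ones (log2 ratio -0.29, -0.62 to 0.029), an interval that includes 0. The 6 B marker genes summed to 7014 CPM in allogeneic B-like cells, against 6864 CPM in syngeneic ones, and the 3 T marker genes to 136 CPM in allogeneic B-like cells, against 242 CPM in syngeneic ones. Without haemoglobin and mitochondrial UMIs, all 58 values recomputed over all comparisons stayed within the counting interval of the reported value (for counts of genes, within 1.5-fold). With the T-like levels subtracted, so did all 13 values recomputed for B-like cells. The part of these T markers, and of haemoglobin and depth, in the differences was not tested beyond these and the thinned and deep-cell values.

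**Figure D4:**
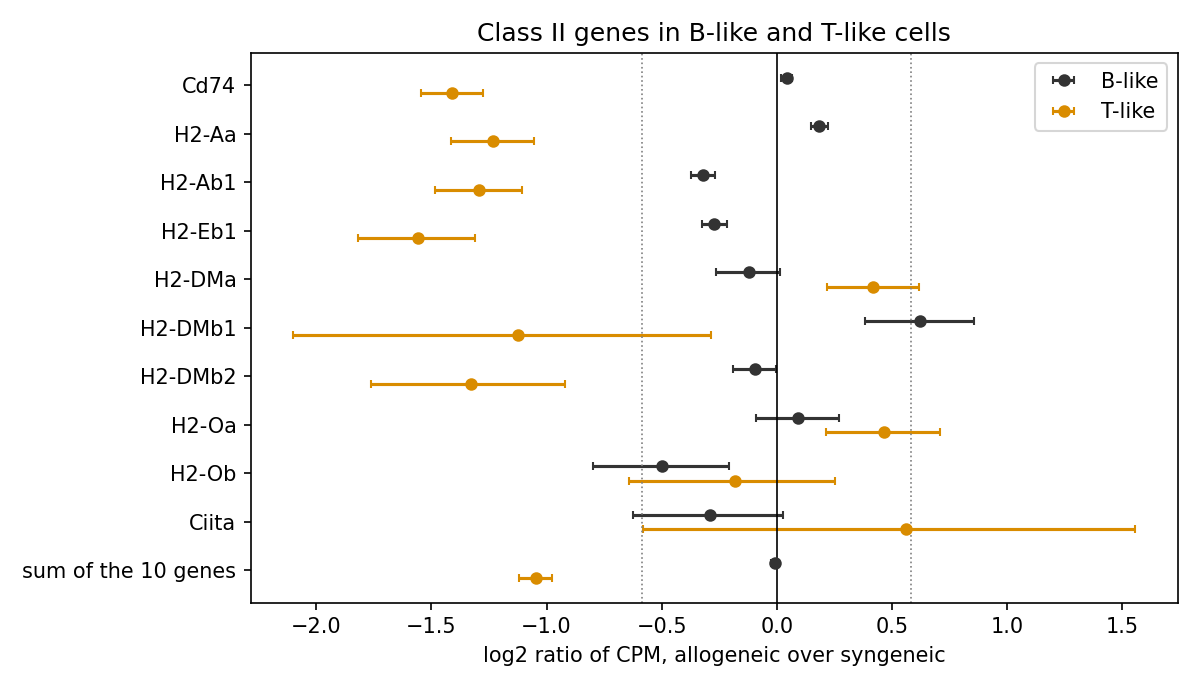
log2 ratio of CPM, allogeneic over syngeneic, of each gene and of the sum of the 10 in B-like (dark) and T-like (orange) cells, with exact 95% intervals for counting error. Dotted lines mark 1.5-fold, and the sum stood at -0.0079 in B-like cells and at -1.05 in T-like cells.

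T-like cells were included as cells that should carry little class II RNA of their own, since droplets also catch RNA freed from other cells. The 10 genes summed to 431 CPM in allogeneic T-like cells, against 891 CPM in syngeneic T-like cells (log2 ratio -1.05, -1.12 to -0.97). Of the 10 genes 6 were lower by 1.5-fold or more in the allogeneic library, beside 10.6% of 10164 genes, and 0 were higher by as much, beside 18.2% of all genes. The median log2 ratio was -1.18 over the 10 genes and 0.091 over all genes. Cd74 had 126 CPM in allogeneic T-like cells, against 334 CPM in syngeneic ones (log2 ratio -1.41, -1.54 to -1.28). The share of T-like cells with a Cd74 UMI was 37% in the allogeneic library, against 81.7% in the syngeneic library. Thinned to 1000 UMIs, it was 12% of 948 allogeneic cells, against 29% of 5184 syngeneic cells. B markers moved with this: the 6 B marker genes summed to 37.3 CPM in allogeneic T-like cells, against 126.6 CPM in syngeneic T-like cells, each with all 6 genes detected, and their part in the difference was not tested.

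Within T-like cells, H2-DMa, H2-Oa and H2-Ob were far from the proportions they had in B-like cells. Each gene was set against Cd74 in both cell types of a library. Relative to Cd74, H2-DMa was 19.2 (16.4 to 22.5) times as frequent in T-like as in B-like cells of the allogeneic library, and 4.83 (4.53 to 5.14) times in the syngeneic library. H2-Oa gave 20.3 (16.7 to 24.7) times in the allogeneic and 5.74 (5.29 to 6.23) times in the syngeneic library. H2-Ob gave 16.8 (11.7 to 23.9) times in the allogeneic and 4.94 (4.39 to 5.56) times in the syngeneic library. The class II chains and H2-DMb2 stood between 1.4 and 2.64 times in the allogeneic library and between 1.36 and 1.89 times in the syngeneic library. H2-DMb1 stood at 2.42 (1.23 to 4.32) in the allogeneic and 2.96 (2.52 to 3.47) in the syngeneic library, and Ciita, from few UMIs, at 4.21 (1.95 to 8.1) in the allogeneic and 0.852 (0.628 to 1.13) in the syngeneic library. These folds also move with Cd74 itself, which was lower in allogeneic T-like cells. In counts, 1381 H2-DMa UMIs were seen in syngeneic T-like cells where the proportions of B-like cells give 286, and 878 H2-Oa UMIs where they give 153. The T-like levels of these genes also did not share the lower allogeneic level of Cd74. H2-DMa had 63.8 CPM in allogeneic T-like cells, against 47.7 CPM in syngeneic ones (log2 ratio 0.42, 0.22 to 0.62). H2-Oa had 41.9 CPM in allogeneic T-like cells, against 30.4 CPM in syngeneic ones (log2 ratio 0.47, 0.22 to 0.71). H2-Ob had 12.5 CPM in allogeneic T-like cells, against 14.2 CPM in syngeneic ones (log2 ratio -0.18, -0.64 to 0.25), an interval that includes 0. The H2-DMa ratio ran from 0.18, with 95% of marker UMIs required from the own lineage, to 0.81, past 1.5-fold, with cells thinned to 1000 UMIs. That of H2-Oa ran from 0.28 with thinned cells to 0.68, past 1.5-fold, among cells as deep as the syngeneic ones.

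T-like cells were then divided by coreceptor, as cells with at least 2 UMIs of Cd8a and Cd8b1 and none of Cd4, or with a Cd4 UMI and none of Cd8a and Cd8b1. H2-Oa was higher in the CD8 group in both libraries. It had 61.3 CPM in 293 allogeneic CD8 cells, against 36.1 CPM in 212 allogeneic CD4 cells (log2 ratio 0.76, 0.13 to 1.44). In the syngeneic library it had 41.2 CPM in 2071 CD8 cells, against 22.2 CPM in 1157 CD4 cells (log2 ratio 0.89, 0.61 to 1.17). It was the 1 class II gene higher by 1.5-fold or more in the CD8 group, of 6 with enough UMIs in the allogeneic library, beside 4.22% of all genes, and of 9 in the syngeneic library, beside 4.07%. None of those with enough UMIs was lower by as much in either library, beside 11.9% of all genes in the allogeneic and 6.53% in the syngeneic library. H2-Ob had too few UMIs to be among the 6 of the allogeneic library. There it had 6.64 CPM in CD8 cells (9 UMIs), against 18.1 CPM in CD4 cells (14 UMIs, log2 ratio -1.44, -2.83 to -0.13). In the syngeneic library H2-Ob had 14.3 CPM in both groups (log2 ratio -0.00046, -0.38 to 0.39). Cd74 differed little between them, at 120.3 CPM in CD8 cells and 121 CPM in CD4 cells of the allogeneic library, and 318 CPM in CD8 cells and 353 CPM in CD4 cells of the syngeneic library. H2-DMa and H2-Oa overlap genes on the opposite strand, Brd2 and BC051537, and H2-Ob overlaps none in the annotation. The sources used here do not say whether counting used the strand, so for H2-DMa and H2-Oa reads of the partner cannot be told apart. BC051537 itself was nearly absent, with 1 UMI in allogeneic and 24 UMIs in syngeneic T-like cells. Brd2 had 79.2 CPM in allogeneic and 72.2 CPM in syngeneic T-like cells. H2-Eb1 and Ciita overlap Gm20513 and Dexi in the same way.

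**Figure D5:**
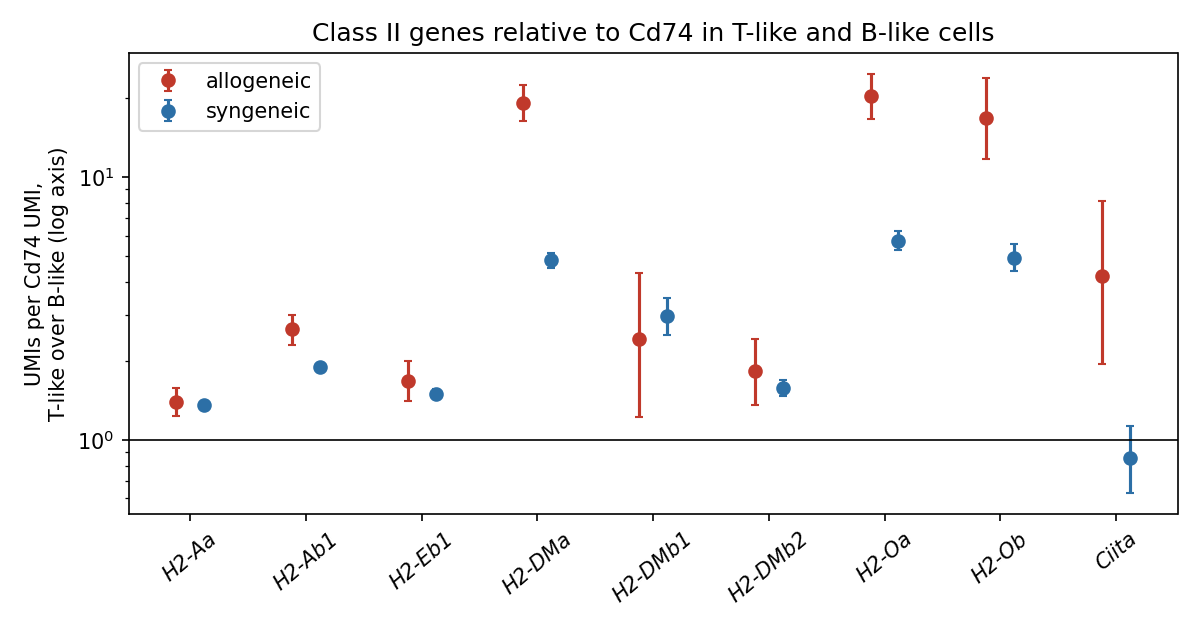
UMIs of each gene per Cd74 UMI in T-like cells, divided by the same value in B-like cells of that library (log axis), allogeneic in red and syngeneic in blue, with exact 95% intervals and a line at 1. H2-DMa, H2-Oa and H2-Ob stood at 19.2, 20.3 and 16.8 in the allogeneic library.

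Germinal centre B-like cells, B cells gated further on markers of the germinal centre reaction such as Rgs13 and S1pr2, carried less of each of the 10 class II genes than the other B-like cells of the syngeneic library. All 10 genes were lower, with every interval below 0, and the median log2 ratio was -0.61, beside 0.019 over 7818 genes. Of the 10 genes 5 were lower by 1.5-fold or more, beside 18.5% of all genes: H2-Aa, H2-DMb1, H2-DMb2, H2-Oa and Ciita. None was higher by as much, beside 19.8%. The largest difference among the 10 was that of H2-DMb1, with 44.7 CPM in germinal centre B-like cells, against 152 CPM in B-like cells (log2 ratio -1.77, -2.12 to -1.43). H2-Oa had 139.9 CPM in germinal centre B-like cells, against 351 CPM in B-like cells (log2 ratio -1.33, -1.53 to -1.13), while its partner H2-Ob had 158 CPM in germinal centre B-like cells, against 190.3 CPM in B-like cells (log2 ratio -0.27, -0.46 to -0.071). Germinal centre B-like cells were deeper, with a median of 9853 UMIs, against 4200 UMIs in B-like cells. Without the 5% deepest cells of each library, which left 84 of 145 germinal centre B-like cells, H2-DMa and H2-Ob turned to log2 ratios of 0.064 and 0.10, and H2-Aa, H2-DMb2 and Ciita no longer reached 1.5-fold (-0.39, -0.45 and -0.27). H2-DMb1 and H2-Oa stayed at -1.49 and -0.84. The allogeneic library held only 7 such cells. In the allogeneic library 5 genes were higher and 5 lower than in B-like cells, 2 of them lower by 1.5-fold or more, beside 39.5% of 2392 genes, and none higher by as much, beside 21.5%. Between the libraries, 9 of the 10 genes were higher in allogeneic than in syngeneic germinal centre B-like cells, 4 of them by 1.5-fold or more, beside 13% of 4281 genes, and 1, H2-Ob, was lower by as much, beside 41.9%. The median log2 ratio was 0.46 over the 10 genes, beside -0.38 over the 4281 genes. The interval lay above 0 for 6 of the 10 and below 0 for none. H2-Ob had 5 allogeneic UMIs (log2 ratio -0.71, -2.34 to 0.53). Of the 4, H2-DMb1 had 8 allogeneic UMIs (1.79, 0.53 to 2.84) and H2-Oa had 12 (0.73, -0.24 to 1.56). H2-Aa had 9059 CPM in the 7 allogeneic cells (8256 to 9918), against 4828 CPM in the 145 syngeneic cells (4725 to 4932). Of the 51664 UMIs of the 7 allogeneic cells, 18037 and 12303 came from 2 cells, so the allogeneic sums rest largely on these. This comparison between the libraries was not recomputed under other settings.

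Plasmacytoid dendritic-like cells, gated on Siglech, Ccr9 and other genes of the interferon-producing lineage, were found in the syngeneic library. Set against B-like cells of that library, 1 of the 10 genes, H2-DMb1, was higher by 1.5-fold or more, beside 21% of 7281 genes, and 5 were lower by as much, beside 27.4%. H2-DMb1 had 535 CPM in plasmacytoid dendritic-like cells, against 152 CPM in B-like cells (3.51-fold; log2 ratio 1.81, 1.58 to 2.04). The lower ones, with how far each was lower, were H2-DMb2 (8.79-fold), H2-Ob (17-fold), Ciita (5.45-fold), H2-Oa (1.65-fold) and H2-Eb1 (1.56-fold). Ciita had 25.2 CPM in plasmacytoid dendritic-like cells, against 137 CPM in B-like cells (log2 ratio -2.45, -3.58 to -1.51). Its targets Cd74, H2-Ab1, H2-Aa and H2-DMa were lower by 1.18-fold, 1.17-fold, 1.27-fold and 1.28-fold. The 6 B marker genes, all detected, summed to 219 CPM in plasmacytoid dendritic-like cells, against 6864 CPM in B-like cells. The log2 ratio of H2-Ob, -4.09 from 4 UMIs, was -2.35 with cells thinned to 1000 UMIs. Requiring 95% of marker UMIs from the own lineage left 3 plasmacytoid dendritic-like cells, and H2-Oa then no longer reached 1.5-fold (log2 ratio -0.17), while H2-DMb2 stood at -4.16, against -3.14 with all 50 cells.

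Migratory dendritic-like cells were lower than B-like cells for all 10 genes by 1.5-fold or more in the syngeneic library, beside 46.9% of 7307 genes, and the median log2 ratio was -2.47, beside -0.50 over all genes. None was higher, beside 15.2% higher by 1.5-fold or more among all genes. The class II chains and Cd74 were lower by 2.61-fold to 4.72-fold, and H2-DMb2 by 13.2-fold, while H2-Oa, H2-Ob and Ciita, at 13, 3 and 4 UMIs, had log2 ratios of -3.52, -4.75 and -3.86. All 10 stayed lower by 1.5-fold or more under each alternative that gave a value, but the sizes moved. Thinned to 1000 UMIs, H2-DMb2 moved to -5.93, against -3.73 unthinned, H2-DMa to -1.86, against -2.69, and Ciita to -2.66. Without the 5% deepest cells, which left 25 of the 46 dendritic-like cells, H2-Aa moved to -2.41, against -1.71, H2-DMb1 to -3.54, against -2.21, and H2-DMa to -3.32. Between the libraries, Cd74 had 635 CPM in the 10 allogeneic migratory dendritic-like cells (12 UMIs, 328 to 1109), against 6294 CPM in the 41 syngeneic ones (2669 UMIs, 6058 to 6537). H2-Eb1 had 423 CPM in the allogeneic cells (8 UMIs), against 1764 CPM in the syngeneic cells. The genes with at least 50 UMIs were 4 of the 10, and all 4 were lower by 1.5-fold or more in the allogeneic cells, beside 35.6% of 1014 genes, while 16.9% of these were higher by as much. The allogeneic cells had a median of 958 UMIs, against 10323 UMIs in the syngeneic ones, and held 1 UMI of Zbtb46 and none of Itgax, so depth and cell state cannot be told apart from the group. Their Cd74 level was above that of allogeneic T-like cells.

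Macrophage-like cells of the allogeneic library had 37 class II UMIs in all. Cd74 had 878 CPM (15 UMIs, 491 to 1448), H2-Eb1 644 CPM (11 UMIs) and H2-Aa 409.8 CPM (7 UMIs). Of the B markers 2 of 6 were detected in these cells, at a sum of 117 CPM, and 2 of 3 T markers, at 176 CPM, and their part in the class II UMIs was not tested. The H2-DM and H2-O genes and Ciita had 0 UMIs, and the floor of 3 UMIs stands at 176 CPM in these cells. A level such as that of Ciita in B-like cells was therefore not detectable at this depth.

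Other genes of the pathway were taken from lists chosen by role. For allogeneic over syngeneic B-like cells, the lysosomal processing list had 0 of 7 measured genes higher and 1 lower by 1.5-fold or more, beside the 19.7% and 19.3% given above. The gene that was lower was Ifi30, a thiol reductase that opens disulfide bonds of antigens, with 268 CPM in allogeneic B-like cells, against 726 CPM in syngeneic ones (log2 ratio -1.43, -1.64 to -1.24). Ctss, the protease that trims the invariant chain in B cells and dendritic cells, had 532 CPM in the allogeneic library, against 500.4 CPM in the syngeneic library. Ctsh and Ctsz, lysosomal cathepsins, had 293 and 308 CPM in allogeneic B-like cells, against 438 and 313 CPM in syngeneic ones. Of 13 regulators of class II transcription 2 were higher and 5 lower by 1.5-fold or more, beside the same shares of all genes. Irf1, an interferon-induced factor, had 141 CPM in allogeneic B-like cells, against 63.6 CPM in syngeneic ones (log2 ratio 1.15, 0.83 to 1.46). Pou2af1, a B cell coactivator, had 256 CPM in the allogeneic library, against 138 CPM in the syngeneic library (log2 ratio 0.90, 0.66 to 1.12). Spib, a factor of B and plasmacytoid dendritic cells, had 93.6 CPM in allogeneic B-like cells, against 142 CPM in syngeneic ones, and Irf8, a factor of B and dendritic cells, had 519 CPM in allogeneic B-like cells, against 598 CPM in syngeneic ones.

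Of 5 measured genes of surface turnover and costimulation 1 was higher and 2 were lower by 1.5-fold or more in allogeneic B-like cells, beside 19.7% and 19.3% of all genes. March1, the ubiquitin ligase that takes class II off the surface, had 212 CPM in allogeneic B-like cells, against 141 CPM in syngeneic ones (log2 ratio 0.59, 0.34 to 0.83). Cd83, which opposes that ligase, had 135 CPM in the allogeneic library, against 401 CPM in the syngeneic library (log2 ratio -1.57, -1.87 to -1.29). Cd40, the receptor for T cell help, had 48.7 CPM in allogeneic B-like cells, against 115 CPM in syngeneic ones (log2 ratio -1.24, -1.75 to -0.77), and Icosl, a ligand for T cell costimulation, had 104 CPM in the allogeneic, against 90.1 CPM in the syngeneic library. H2-Eb2, a further class II beta gene, had 3.74 CPM in allogeneic B-like cells (3 UMIs), against 16.3 CPM in syngeneic ones (log2 ratio -2.12, -4.43 to -0.52). Within the syngeneic library H2-Eb2 had 34.4 CPM in germinal centre B-like cells, against 16.3 CPM in B-like cells (log2 ratio 1.08, 0.57 to 1.58).

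The same lists were read in the other cell types against B-like cells of the syngeneic library. In migratory dendritic-like cells 6 of 7 measured lysosomal genes were higher by 1.5-fold or more, beside 15.2% of all genes, and 0 were lower, beside 46.9%. In plasmacytoid dendritic-like cells 6 of 8 were higher, beside 21%, and 1 was lower, beside 27.4%. In germinal centre B-like cells 0 of 7 were higher, beside 19.8%, and 2 were lower, beside 18.5%. Ctss had 910.3 CPM in migratory dendritic-like, 1020.0 CPM in plasmacytoid dendritic-like and 221 CPM in germinal centre B-like cells, against 500.4 CPM in B-like cells. Ctsh had 896 CPM in migratory dendritic-like and 1782 CPM in plasmacytoid dendritic-like cells, against 438 CPM in B-like cells. Ctsl and Ctsb, cathepsins named after their values had been seen, had 1578 and 2026 CPM in plasmacytoid dendritic-like cells, against 5.43 and 63.6 CPM in B-like cells. Of the 5 surface genes all were lower in plasmacytoid dendritic-like cells by 1.5-fold or more, beside 27.4% of all genes, among them Cd83 with 14 CPM, against 401 CPM in B-like cells. In germinal centre B-like cells 1 of the 5 was higher, beside 19.8%, and 3 were lower, beside 18.5%. In migratory dendritic-like cells 2 were higher, beside 15.2%, and 2 lower, a share near the 46.9% of all genes. Of the 13 regulators 2 were higher and 7 lower in plasmacytoid dendritic-like cells, beside 21% and 27.4% of all genes. In migratory dendritic-like cells 3 were higher, beside 15.2%, and 7 were lower, near the 46.9% of all genes. In germinal centre B-like cells 4 were higher, beside 19.8%, and 2 lower, beside 18.5%. Irf8 had 4074 CPM in plasmacytoid dendritic-like cells, against 598 CPM in B-like cells (log2 ratio 2.77, 2.68 to 2.86). Pou2af1 had 2.8 CPM (1 UMI) in plasmacytoid dendritic-like cells, against 138 CPM in B-like cells.

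Across the 5 gated types of the syngeneic library with at least 20 cells, the genes outside the list whose log2(CPM + 10) ran most like that of the summed class II genes were Irf5, Dnajc8, BC028528, Ifi30 and Casp1, out of 4249 genes compared. Their Pearson correlations were 0.993, 0.992, 0.988, 0.975 and 0.972. The 5 points share 1 library, and T-like cells are the low end of each. Irf5 had 104 CPM in plasmacytoid dendritic-like and 125 CPM in B-like cells, against 4.39 CPM in T-like cells. Dnajc8 ranged only from 205 to 232 CPM, so its likeness is one of shape and not of range.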

How the data were processed

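UMI counts per gene and cell barcode were measured by droplet sequencing in 2 libraries, 1 allogeneic and 1 syngeneic. The values are whole-number counts, deposited by the authors without normalization. Libraries were made with a Chromium 3′ kit, per the labels' protocols, and Cell Ranger 2.2.0, STAR, Seurat 2.3.4 and mm10 are named in the submitters' processing notes. The sources used here do not state how barcodes were selected. Of 27998 entries, 56 symbols stood for several, whose counts were summed.

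From these counts, cells were filtered and gated with Python 3.11.15 (numpy 2.4.6, scipy 1.17.1, pandas 2.3.3) as given in the report. Doublets were treated by leaving out cells of mixed lineage, and no doublet caller was run. Counts were summed per gate and library and divided by the total of the gate. Intervals are exact Poisson for a level, exact binomial (Clopper-Pearson) for a share and exact conditional for a ratio, all at 95%. Of these, the ratio interval alone was tested on simulated data. Those data were drawn with counting error only, so the test cannot show how the interval performs where cells or mice vary more. All these intervals cover counting error only. The floor of a count of 0 is 3 UMIs, which is 0.357 CPM of all allogeneic UMIs and 0.0645 CPM of all syngeneic UMIs, before any barcode was left out. A call is a CPM ratio of at least 1.5 in either direction among genes with 50 UMIs or more in the 2 sums together. There was no test, since each group is 1 library.

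All 10 members were named. From each further list, at most 4 genes with the highest CPM and at least 50 CPM in B-like cells were named, together with H2-Eb2. Ctsl and Ctsb were named outside this rule, after their values had been seen. Members and lists were chosen with earlier results of these data known. The division of dendritic-like and T-like cells and the run without shared barcodes were chosen after seeing the data. Alternatives were other cell filters, gates, depths and scalings. Promoter sequences are those of RefSeq.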

Additional observations from a re-analysis of the deposited data

Results flagged for a closer look

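For 3 genes the allogeneic over syngeneic log2 ratio had opposite signs in B-like and T-like cells with an interval that left out 0 in both, and the difference between the cell types was not tested. For Cd74 it was 0.043 in B-like cells and -1.41 in T-like cells. For H2-Aa, the H2-A alpha chain, it was 0.18 in B-like cells and -1.23 in T-like cells. For H2-DMb1, an H2-DM beta chain, it was 0.62 in B-like cells and -1.12 in T-like cells, the last from 12 allogeneic and 197 syngeneic UMIs. H2-DMa (-0.12 in B-like and 0.42 in T-like cells) and Ciita (-0.29 in B-like and 0.56 in T-like cells) also had opposite signs, with an interval that includes 0 in B-like cells for both genes and in T-like cells for Ciita.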

How the results depend on the processing

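Of 636 recomputed values, 536 stayed within the counting interval of the reported value (for counts of genes, within 1.5-fold), 93 moved outside it, and 7 turned direction where the reported interval left out 0. Values whose reported interval includes 0 can turn as well and are not among the 7, such as the B-like sum (0.0076 with T-like levels subtracted). The summed log2 ratio in B-like cells, -0.0079, became -0.090 with 95% of marker UMIs required from the own lineage, -0.084 among cells with at least the UMI total of the lowest syngeneic barcode, -0.083 with cells thinned to 1000 UMIs, -0.066 without the 5% of cells with most UMIs, and -0.028 without the barcodes both libraries share, a setting added after seeing the data. With the stricter lineage gate the median over the 10 genes in B-like cells was -0.25. With thinned cells 2 genes, not 4, were higher in allogeneic B-like cells. In T-like cells the summed ratio was -1.14 with median-of-ratios scaling. The Cd74 ratio in B-like cells reversed to -0.039 with the stricter lineage gate, -0.084 among deep cells, -0.031 with thinned cells and -0.017 without the deepest cells. In germinal centre B-like over B-like cells H2-DMa reversed to 0.019 with thinned cells and 0.064 without the deepest cells, and H2-Ob to 0.10 in that last setting. The cause was not tested. No paired analysis was possible because each group is 1 library, and for the same reason no replicate could be left out. Low depth limits the allogeneic macrophage-like and dendritic-like cells, and the number of cells, 7, limits the allogeneic germinal centre B-like cells.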
